A study of Mus musculus with 5 samples.

Results

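Estrogenic, aromatase-positive antral granulosa cells are the follicle cells that turn androgen into estrogen. They were taken as cells with at least 1000 detected genes, a mitochondrial (mt-) share of UMIs under 15%, at least 2 UMIs of Cyp19a1, at least 1 of Inhba and at least 10 of Inha, and with 0 UMIs of Cyp17a1, the androgen-making enzyme of theca cells, and of Dcn, a proteoglycan of stromal cells. A UMI is a molecular identifier that marks 1 captured RNA molecule. Of 48163 deposited cells, 461 met this rule, which were 37 cells at 2 wk, 70 at 3 wk, 17 at 4 wk, 102 at 5 wk and 235 at 6 wk.

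The cells came from dissociated ovaries of untreated C57BL6/J mice, sorted by flow cytometry for live cells and profiled by droplet single-cell RNA-seq (10x Genomics, 3′ v3.1). A single library stood for each age, so no test between ages was possible, and age, mouse, day of preparation and library cannot be told apart. The 2, 3 and 4 wk libraries were counted with Cell Ranger 3.1.0 and those at 5 and 6 wk with 6.0.1, so software version also changes between the early and late ages and cannot be told apart from them. In the study's scheme the follicles that grow at 2 and 3 wk are mostly those of wave 1, the first to develop, and the labels do not assign single cells to a wave. The study counted no antral follicles in ovaries of about 2 wk, though it scored some granulosa clusters of that age as antral. The rule did not use follicle stage, so antral is here the name of the cell type and was not measured. Pairs of libraries shared between 18 and 35 cell barcodes, none of them between 2 aromatase-positive cells, and 4 aromatase-positive cells had a barcode that was also found in another library.

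In a growing follicle, theca cells make androgen from cholesterol and granulosa cells convert it with aromatase, the enzyme encoded by Cyp19a1. Follicle-stimulating hormone drives this step, and granulosa cells of large antral follicles also secrete inhibins and activins, which are dimers built from the Inha, Inhba and Inhbb subunits. Receptors for luteinizing hormone (Lhcgr) appear on mural granulosa cells as a follicle nears ovulation, and C-type natriuretic peptide (Nppc) from these cells holds the oocyte in meiotic arrest.

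All 5 marker genes of the cell type lie on GRCm38 (GENCODE vM21) as protein-coding genes. Cyp19a1 spans chr9:54165937-54268110 on the minus strand, Inhba chr13:16011851-16031621 and Inha chr1:75507077-75510366 on the plus strand, Lhcgr chr17:88716481-88791990 and Nppc chr1:86666291-86670571 on the minus strand. RefSeq promoter windows (GRCm38.p6) were at hand for all 5, with 7 windows in all because Cyp19a1 has 3 annotated starts. Below are the 250 bases before the most upstream Cyp19a1 start (chr9:54268165-54268414, minus strand) and before the Lhcgr start (chr17:88792015-88792264, minus strand), shown because aromatase defines the cells and the LH receptor is a marker whose level was far apart between ages.
Cyp19a1: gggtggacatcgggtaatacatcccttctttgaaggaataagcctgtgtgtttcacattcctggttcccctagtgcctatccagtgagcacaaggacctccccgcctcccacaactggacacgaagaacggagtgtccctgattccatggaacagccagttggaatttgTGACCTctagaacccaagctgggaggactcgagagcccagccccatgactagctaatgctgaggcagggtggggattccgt
Lhcgr: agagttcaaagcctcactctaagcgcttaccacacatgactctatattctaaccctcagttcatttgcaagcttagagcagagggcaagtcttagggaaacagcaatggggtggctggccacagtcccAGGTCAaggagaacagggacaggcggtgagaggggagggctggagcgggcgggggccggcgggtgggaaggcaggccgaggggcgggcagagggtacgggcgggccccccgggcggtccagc
Capitals mark AGGTCA or its reverse complement TGACCT, a nuclear receptor half-site. It begins 81 bases before the most upstream Cyp19a1 start and 122 bases before the Lhcgr start. It was also found 69 bases before the Inha start, which makes 3 of 7 windows. The windows of the other Cyp19a1 starts, of Inhba and of Nppc did not hold it. Of 32851 mouse promoters, 14.0% held it within 250 bases of the start on either strand. This motif was searched only after AAGGTCA and TGACGTCA (the cAMP response element) had been found in 0 of the 7 marker windows of 300 bases, beside 4.72% and 1.79% of all promoters. The counts do not show which Cyp19a1 start these cells used.

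Aromatase-positive cells were a small share of every ovary, smallest at 4 wk and largest at 6 wk. Among cells that passed the filters on genes and mt- share, they made up 0.477% at 2 wk (exact binomial interval 0.336% to 0.657%), 0.914% at 3 wk (0.713% to 1.15%), 0.185% at 4 wk (0.108% to 0.297%), 1.56% at 5 wk (1.27% to 1.88%) and 2.66% at 6 wk (2.34% to 3.02%). The 4 wk interval lay below all the others, and the 5 and 6 wk intervals lay above both early ones. Intervals here and below are at 95% and cover counting error only. The share at 4 wk was 0.389 times that at 2 wk (0.205 to 0.708), the share at 6 wk was 14.4 times that at 4 wk (8.78 to 25.1), and the share at 6 wk was 1.71 times that at 5 wk (1.35 to 2.18). With at least 1 Cyp19a1 UMI in the rule the first of these ratios was 0.806 and the second 7.15, and with at least 5 no 4 wk cell was left. Without the Inhba requirement the first ratio was 0.218, with shares of 0.903% at 2 wk and 0.940% at 3 wk. Counted instead among the cells with at least 10 Inha UMIs and no Cyp17a1 or Dcn UMI, the shares were 1.81%, 2.54%, 0.410%, 5.11% and 7.92% in order of age, with the same lowest and highest library.

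**Figure D1:**
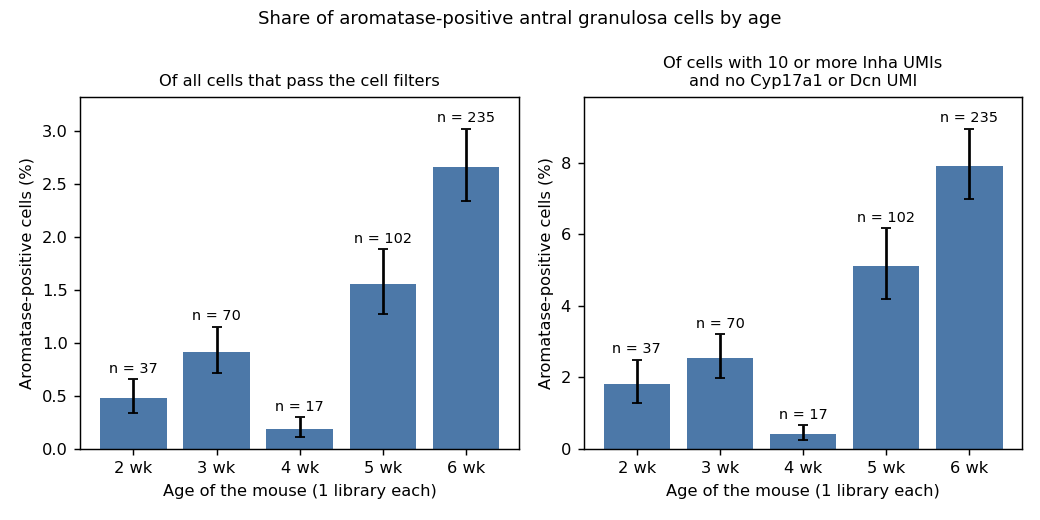
Share of aromatase-positive granulosa cells (%, vertical axis) by age in weeks, among all cells that pass the filters (left) and among cells with at least 10 Inha UMIs and no Cyp17a1 or Dcn UMI (right). Bars are the share in 1 library, whiskers the exact 95% binomial interval and n the number of cells; the 4 wk bar (0.185% and 0.410%) is the lowest and the 6 wk bar (2.66% and 7.92%) the highest.

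A rule in UMIs favours cells that were read more deeply. The median aromatase-positive cell had 17282, 22439.5, 16922, 21063 and 21791 UMIs at 2 to 6 wk, the summed UMIs of these cells were 701617, 1601636, 302392, 2169520 and 5575411, and Scrublet called 0, 1, 0, 2 and 0 of them doublets. With every cell thinned to 8000 UMIs before the rule was applied, the shares were 0.321%, 0.404%, 0.0911%, 1.15% and 1.96%, again lowest at 4 wk and highest at 6 wk. Immune cells (Ptprc and Laptm5 positive), which should lack aromatase, numbered 42, 33, 67, 103 and 95. Of these few cells, 0%, 3.03%, 1.49%, 0% and 2.11% had a Cyp19a1 UMI. Among all filtered cells the share with a Cyp19a1 UMI was 3.78%, 3.05%, 1.03%, 3.89% and 7.34%, so at 3 and 4 wk it was no higher than in immune cells. Fewer aromatase-positive cells and less Cyp19a1 RNA in each cell cannot be told apart by such a rule.

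The steps of the rule removed different cells at different ages. Of the filtered cells, 109, 80, 22, 138 and 324 had at least 2 Cyp19a1 UMIs, and all but 1 of these (at 6 wk) also had at least 10 of Inha. Requiring Inhba left 58, 76, 21, 134 and 313, so the 2 wk library lost the most. The bar on Cyp17a1 and Dcn then took away 36.2%, 7.89%, 19.0%, 23.9% and 24.9% of what remained. At 2 wk 33 cells failed the rule only because they had no Inhba UMI, against 2, 1, 3 and 7 at the later ages. These 33 cells had 18.9 CPM (UMIs of a gene per 1000000 UMIs of the group) of Lhcgr, 549 of Amh, 877 of Igfbp5 and 201 of Wt1, beside 65.6, 75.5, 229 and 42.8 CPM in the 2 wk cells that met the rule.

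The cells were chosen by their UMIs of Cyp19a1, Inhba, Inha, Cyp17a1 and Dcn, so levels of these genes are a description. Cyp19a1 was at 264 CPM at 2 wk, 135 at 3 wk, 136 at 4 wk, 218 at 5 wk and 209 at 6 wk. The median cell had 4, 2, 2, 3 and 3 Cyp19a1 UMIs, and the highest cell of each library had 16, 10, 4, 33 and 26. Exactly 2 UMIs, the lowest number allowed, were present in 27.0%, 51.4%, 64.7%, 33.3% and 31.5% of the cells. At 3 and 4 wk most aromatase-positive cells therefore stood at the edge of the rule. Inhba was at 1353, 2206, 976, 4185 and 4661 CPM, and Inha at 12287, 12512, 8618, 8551 and 8344 CPM. Both levels stand on genes that chose the cells, and the Inhba limit removed a larger part of the cells at 2 wk than later, so nothing is read from their order.

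Cells just outside the rule, with 1 Cyp19a1 UMI and otherwise the same, numbered 26, 79, 43, 66 and 178. Their Nppc was at 206, 72.5, 51.8, 139 and 307 CPM, and their Hsd17b1 at 615, 362, 294, 927 and 1070.1 CPM. Amh, which marks earlier granulosa cells, was at 156, 399, 809, 271 and 88.6 CPM in them. Hsd17b1 was lower just outside the rule than inside it at every age and Amh was higher outside at 2, 3 and 5 wk, while Nppc was higher outside at 2 and 4 wk and lower at 5 and 6 wk. No test was made across the threshold.

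Lhcgr and Nppc are the 2 markers that the rule did not use. Lhcgr, the receptor that lets a follicle respond to the ovulatory hormone, was at 65.6 CPM at 2 wk (48.0 to 87.5), 1.87 at 3 wk (0.386 to 5.47), 0 at 4 wk (3 UMIs there would be 9.92 CPM), 8.30 at 5 wk (4.92 to 13.1) and 6.82 at 6 wk (4.82 to 9.36). The 2 wk interval lay above those of the other ages and above that floor. An Lhcgr UMI was present in 45.9% of the 2 wk cells, 4.29% at 3 wk, 0% at 4 wk, 13.7% at 5 wk and 13.6% at 6 wk. For 4 wk, 0 of 17 cells allows a share of cells with an Lhcgr UMI of up to 17.6% (3 counts of the total), which does not limit the share of cells expressing the gene. Immune cells, which should lack the gene and had medians of 5518 to 9927 UMIs, held one in 2.38%, 0%, 1.49%, 0.971% and 1.05% of cells. After thinning to 8000 UMIs the aromatase-positive shares were 35.1%, 0%, 0%, 4.04% and 5.96%, so at 3 and 4 wk the receptor was near or at the background of free RNA. Theca cells, the main site of Lhcgr in the ovary, had it in 39.2% to 93.3% of cells, and the early peak of the aromatase-positive cells stayed below that of theca cells in the same library (93.3%).

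Nppc was at 108 CPM at 2 wk (85.3 to 136), 71.8 at 3 wk (59.3 to 86.2), 36.4 at 4 wk (18.2 to 65.1), 205 at 5 wk (186 to 225) and 329 at 6 wk (314 to 344). Both late libraries lay above all earlier ones, and 6 wk above 5 wk. A UMI of Nppc was present in 70.3%, 62.9%, 41.2%, 80.4% and 86.4% of the cells (45.9%, 40%, 17.6%, 62.6% and 67.2% after thinning), against 0% to 8.96% of immune cells. Set beside aromatase-negative cells of the same library, Nppc was higher at 2, 3, 5 and 6 wk, at ratios of 2.83, 1.32, 2.03 and 1.83, and at 4 wk the ratio was 0.796 (0.396 to 1.43). For Lhcgr the ratios were 7.20, 0.847, 5.60 and 11.5 at 2, 3, 5 and 6 wk, and at 5 and 6 wk most cells held no Lhcgr UMI. The label thus had both markers above aromatase-negative cells at 2, 5 and 6 wk, Nppc alone at 3 wk and neither at 4 wk. Its receptor gene Npr2 was low in the same cells, between 34.2 and 53.3 CPM.

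Aromatase-positive cells were set beside aromatase-negative cells of the same library, which met the same rule but had 0 Cyp19a1 UMIs. There were 89, 526, 1089, 525 and 1201 of these, with medians of 17113, 16554, 16199, 17297 and 18010 UMIs. This is the contrast that the rule made, so its ratios describe the cells and no test was run. With few Cyp19a1 UMIs per cell, a cell with 0 can still express the gene, so aromatase-negative means only that none was counted. A gene counted as higher or lower where the ratio was at least 2, or at most 0.5, among 6117 genes with a mean of at least 20 CPM.

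In all 5 libraries 5 genes were higher in aromatase-positive cells (0.0817% of those measured) and 9 were lower (0.147%). The higher ones were Inhbb, Tmem86a, Enc1, Neil3 and Robo2, and the lower ones Itih5, Wt1, Col9a2, Pcsk6, Pik3ip1, Nos2, Tex14, Omd and Pkp2. Of these 5 and 9 genes, 1 and 3 were also called in thinned cells, and 2 and 2 with at least 1 Cyp19a1 UMI in the rule. Without the 4 wk library, with its 17 cells, 36 genes were higher and 16 lower. Inhbb, the subunit of inhibin B and activin B, was at 1001, 1888, 1204, 1278 and 1418 CPM against 298, 746, 382, 341 and 417 in aromatase-negative cells. Its ratio was therefore 3.36, 2.53, 3.15, 3.75 and 3.40, and its lowest ratio was the highest among genes with a mean of at least 50 CPM. The intervals of the 5 ratios ran from 2.42 to 3.94. Follistatin (Fst), which binds and blocks activin, was nearer to even, at ratios of 1.78, 1.40, 1.30, 1.36 and 1.65.

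Steroid genes were higher in aromatase-positive cells at most ages. Of 8 measured genes of steroid synthesis, 4, 0, 1, 4 and 4 were at least 2-fold higher in order of age and none was lower. The shares of all genes that were higher by the same measure were 3.38%, 1.24%, 1.59%, 1.98% and 1.36%. The median ratio of the list was 1.83, 1.29, 1.51, 1.97 and 1.95, and that of all genes measured over the libraries was 0.05 on the log2 scale. With the rule applied to thinned cells, the summed level of the list was 1.72, 1.56, 1.86, 2.27 and 2.05 times that of aromatase-negative cells. Hsd17b1, which reduces estrone to the more active estradiol, was at 1033, 449, 337, 1163 and 1397 CPM against 377, 252, 205, 540.2 and 586 CPM. Hsd3b1, an enzyme that acts between pregnenolone and progesterone, was at 2975, 1356, 615, 2011 and 2195 CPM against 1420.3, 931, 349, 516 and 829 CPM. Both genes were lowest at 4 wk and were higher in the aromatase-positive cells at every age.

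Genes of the first steps of the pathway were uneven. Cyp11a1, the side-chain cleavage enzyme that opens the pathway, was at 78.4, 21.9, 6.61, 129.5 and 81.2 CPM, and Fdx1, its electron donor, at 325, 102, 72.8, 501 and 399 CPM. Both were lowest at 4 wk and highest at 5 wk, and 54.5% of the Cyp11a1 UMIs at 2 wk came from 1 cell. Star, which brings cholesterol into mitochondria, stayed between 1.43 and 9.92 CPM, near the floor of 3 UMIs in these groups. Nr5a2, a nuclear receptor that drives steroid genes in granulosa cells, was at 785, 533, 516, 749.9 and 761 CPM, with ratios of 1.02 to 1.65. The estrogen sulfotransferase Sult1e1 had 0 UMIs in aromatase-positive cells of all 5 libraries.

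Hormone receptors other than Lhcgr differed less. Prlr, the prolactin receptor, was at 143, 46.8, 16.5, 93.6 and 104 CPM, with ratios to aromatase-negative cells of 2.30, 1.34, 0.679, 3.05 and 2.76. Fshr, the receptor for follicle-stimulating hormone, was low, at 19.95, 18.1, 6.61, 20.7 and 29.4 CPM, with ratios of 0.893 to 1.76. Estrogen receptor beta (Esr2) was at 108, 193, 185, 175 and 179.7 CPM, with ratios of 0.815 to 1.42. Pgr, the progesterone receptor of the ovulatory response, had 0 UMIs at 2, 3 and 4 wk and was at 0.461 and 0.717 CPM at 5 and 6 wk.

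Of 6 measured genes of antral maturation, 3, 0, 0, 2 and 1 were at least 2-fold higher in order of age, beside 3.38%, 1.24%, 1.59%, 1.98% and 1.36% of all genes, with median ratios of 1.98, 1.16, 1.29, 1.33 and 1.41. Grb14, an adaptor of the insulin receptor, was above even at 2 wk and below it at the other ages, at ratios of 1.90, 0.695, 0.592, 0.695 and 0.600. Prkar2b, a regulatory subunit of the cAMP-dependent kinase, was at 1793, 729, 370.4, 1662 and 1525 CPM, with ratios of 2.01, 1.48, 1.37, 2.80 and 2.07. Gja1, the connexin that couples granulosa cells, was at 1888, 1554, 1657, 2691 and 2557 CPM, with ratios of 1.95, 1.28, 1.20, 1.43 and 1.39. Outside the list, Tmem86a was higher by 2.18 to 3.19, and Gsta4, a glutathione transferase, by 1.76 to 4.36. Prkar2b, Gja1, Tmem86a and Gsta4 were each above even in all 5 libraries, with the smallest excess at 3 or 4 wk.

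**Figure D2:**
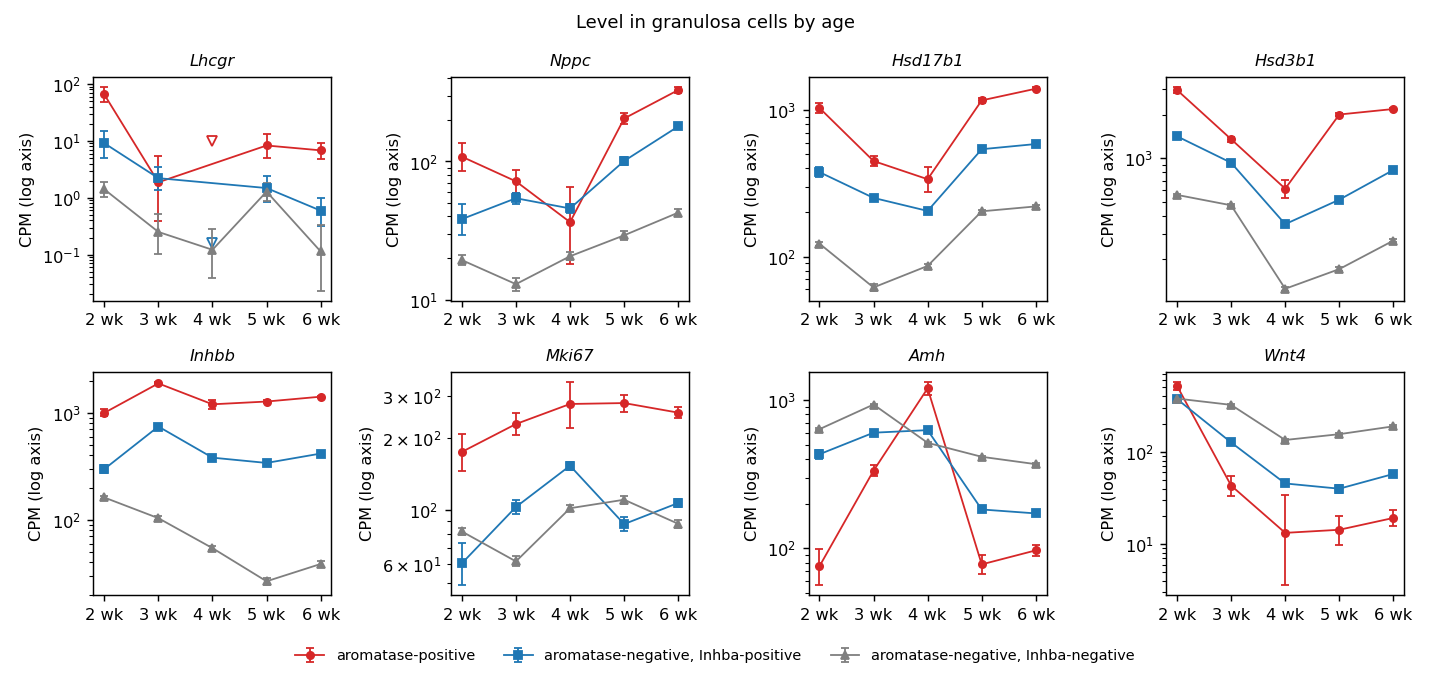
Level of 8 genes (CPM, log axis) by age in weeks in aromatase-positive cells (circles), aromatase-negative Inhba-positive cells (squares) and aromatase-negative Inhba-negative granulosa cells (triangles), with 1 library per age and exact 95% Poisson intervals as whiskers; open inverted triangles mark the level of 3 UMIs where no UMI was counted. Lhcgr peaks at 2 wk (65.6 CPM), Nppc at 6 wk (329 CPM) and Amh at 4 wk (1200.4 CPM, but 104 CPM with the rule applied to thinned cells), while Inhbb and Mki67 are higher in aromatase-positive cells at every age.

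Markers of preantral and cumulus granulosa cells were uneven, with median ratios of 0.714, 0.702, 1.07, 0.816 and 0.767. Amh, the hormone of small growing follicles, was at 75.5, 334, 1200.4, 77.9 and 96.9 CPM against 431, 603, 627, 183 and 172 CPM. The aromatase-positive cells were thus below the aromatase-negative ones except at 4 wk, where the ratio was 1.91 (1.72 to 2.12). The median 4 wk cell had 414 CPM of Amh and the highest 6489 CPM, so the excess was spread unevenly over the 17 cells. With the rule applied to thinned cells, Amh was at 11.4, 149, 104, 46.9 and 29.4 CPM and the 4 wk sum of the list was 0.621 times that of aromatase-negative cells (0.453 to 0.832, 6 cells) against 1.40 unthinned. Of the 7 measured genes of this list, 2, 2, 0, 2 and 2 were at most 0.5 of the aromatase-negative level and 1, 0, 1, 0 and 0 at least 2-fold higher, beside 2.78%, 1.59%, 4.32%, 1.36% and 1.01% of all genes that were lower. Wt1, a transcription factor of early granulosa cells, was lower in every library, at ratios of 0.210, 0.209, 0.451, 0.267 and 0.241. The growth hormone receptor Ghr was at ratios of 0.704, 0.240, 0.127, 0.202 and 0.210, on few UMIs.

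Genes of atresia and remodeling had median ratios of 0.781, 0.908, 0.534, 0.712 and 0.655. Of 12 measured, 4, 2, 6, 4 and 3 were at most 0.5 of the aromatase-negative level, beside 2.78%, 1.59%, 4.32%, 1.36% and 1.01% of all genes, and 1, 0, 0, 0 and 0 were at least 2-fold higher. Their summed level was 1504, 1578, 2093, 1982 and 1659.8 CPM against 1952, 1897, 2721, 2874 and 2414 CPM. With the rule applied to thinned cells the ratio of the sums was 0.873, 1.23, 0.879, 0.786 and 0.745, so it was above even at 3 wk (1.11 to 1.37). Itih5, which encodes a hyaluronan-binding protein, had ratios from 0.131 to 0.286, and its highest ratio was the lowest among genes with a mean of at least 50 CPM over both groups. Runx1, Ctgf, Mmp11, Slc18a2, Chchd10, Marc2, Ablim1, Sdc4 and Cryl1 followed, each with a highest ratio of at most 0.641. Runx1, a transcription factor linked to the ovulatory response, was at 27.1, 35.0, 46.3, 38.3 and 35.7 CPM against 57.7, 60.5, 106, 114 and 98.1 CPM.

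Genes of the G2 and mitosis phases had the highest median ratio of any list with 4 or more measured genes at 2, 3, 5 and 6 wk, but not at 4 wk. All 18 were measured, and 17, 18, 0, 12 and 13 of them were at least 2-fold higher in aromatase-positive cells, beside 3.38%, 1.24%, 1.59%, 1.98% and 1.36% of all genes. Their median ratio was 3.31, 2.79, 1.13, 2.30 and 2.08, and at 4 wk 1 gene was at most 0.5. Top2a, which untangles replicated DNA, was at 527, 662, 519, 555 and 509 CPM against 111, 267, 334, 197 and 229 CPM. Mki67, a protein of the dividing cell's chromosomes, was at 175, 229, 278, 280.2 and 256 CPM against 60.1, 103, 154, 87.7 and 107 CPM. In both genes the aromatase-negative level was highest at 4 wk, where the ratio was smallest. Knl1 and Knstrn, proteins of kinetochores, were also among the 10 genes with the highest lowest ratio.

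The share of cells with a UMI depends on depth, so shares were also compared after thinning. A Mki67 UMI was present in 29.7%, 71.4%, 52.9%, 45.1% and 43.8% of aromatase-positive cells, and in 24.3%, 61.4%, 41.2%, 38.4% and 36.6% after thinning to 8000 UMIs. In aromatase-negative cells it was present in 10.1%, 33.5%, 44.3%, 20.6% and 23.7%, with medians of 16199 to 18010 UMIs. Immune cells, which also divide, had it in 15.2% to 32.8%. With the rule itself applied to thinned cells, the summed level of the list was 3.18, 1.58, 1.26, 2.38 and 1.73 times that of aromatase-negative cells. Against unthinned ratios of 3.70, 2.74, 1.27, 2.31 and 2.11, the excess was smaller at 2, 3 and 6 wk and close to it at 4 and 5 wk. It was above even in all 5 libraries, with a 4 wk interval of 1.02 to 1.55 over 6 cells. Genes of the S phase differed less, with 5, 0, 1, 0 and 0 of 16 at least 2-fold higher (3.38%, 1.24%, 1.59%, 1.98% and 1.36% of all genes) and median ratios of 1.12 to 1.55. With the rule applied to thinned cells the ratio of their sums was 1.38, 0.872, 0.830, 0.965 and 1.12, with intervals that included even at 3, 4 and 5 wk.

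**Figure D3:**
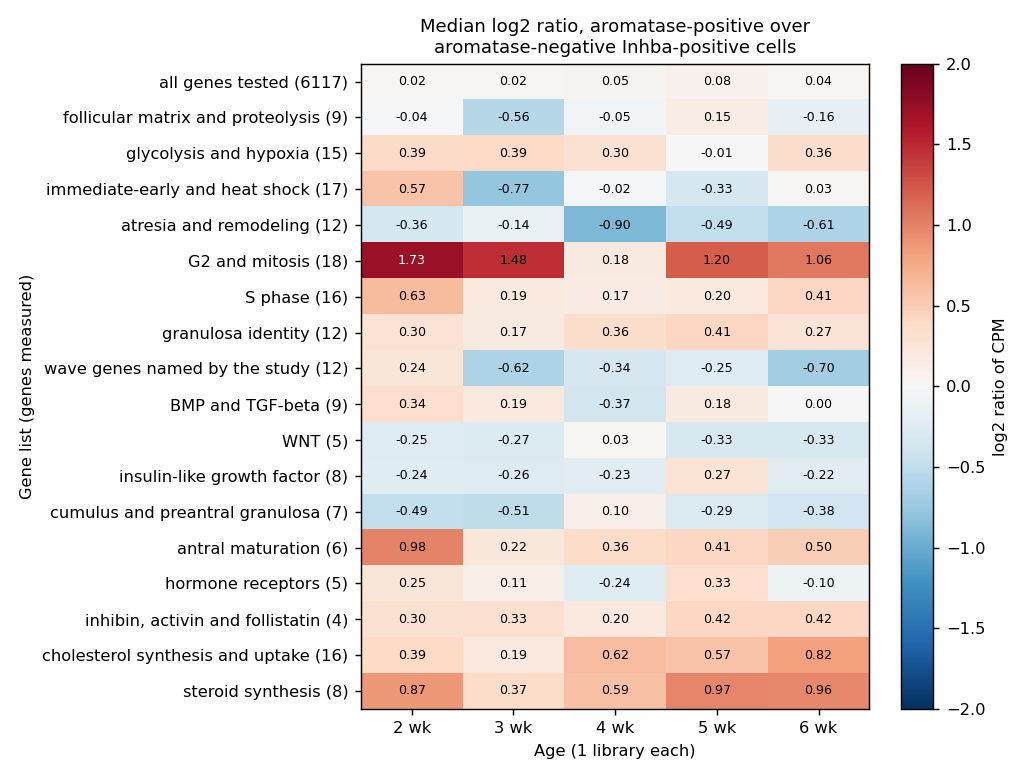
Median log2 ratio of CPM between aromatase-positive and aromatase-negative Inhba-positive cells for each gene list (rows, number of genes measured in brackets) and age in weeks (columns, 1 library each); red is higher and blue lower in aromatase-positive cells. G2 and mitosis genes have median ratios of 3.31, 2.79, 1.13, 2.30 and 2.08 in order of age, steroid synthesis genes are red in every column, and all genes measured lie near 0.

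Within each library the aromatase-positive cells were ranked by their own Cyp19a1 CPM and cut in 3 bins of equal size, which gives a description and no test. With at least 2 UMIs required, the lowest bin holds deeper cells by construction. Its median was 19678, 25471.5, 22458.5, 23780.5 and 27527 UMIs in order of age, against 17388, 16777, 10504, 15155 and 21065 in the highest bin. The part of depth in these orders was not tested. Hsd3b1, Gja1 and Prkar2b were each higher in the middle than in the lowest bin and higher again in the highest, in 5 of 5 libraries, as were Inhba and Inha, which the rule used. Hsd3b1 at 6 wk stood at 1445, 2591 and 2882 CPM over the 3 bins, and at 2 wk at 2775, 2976 and 3234 CPM. Nppc, Hsd17b1 and Prlr were higher in the highest than in the lowest bin in 5 of 5, with a step in between that did not always keep the order. Amh was lower in the highest than in the lowest bin in 5 of 5, at 163, 75.8 and 22.7 CPM over the bins at 6 wk but at 73.6, 88.5 and 72.3 CPM at 5 wk, and Slc38a3, an amino acid transporter of cumulus cells, likewise in 5 of 5. Mki67 and Top2a kept no order, being higher in the highest bin in 2 libraries and lower in 3.

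**Figure D4:**
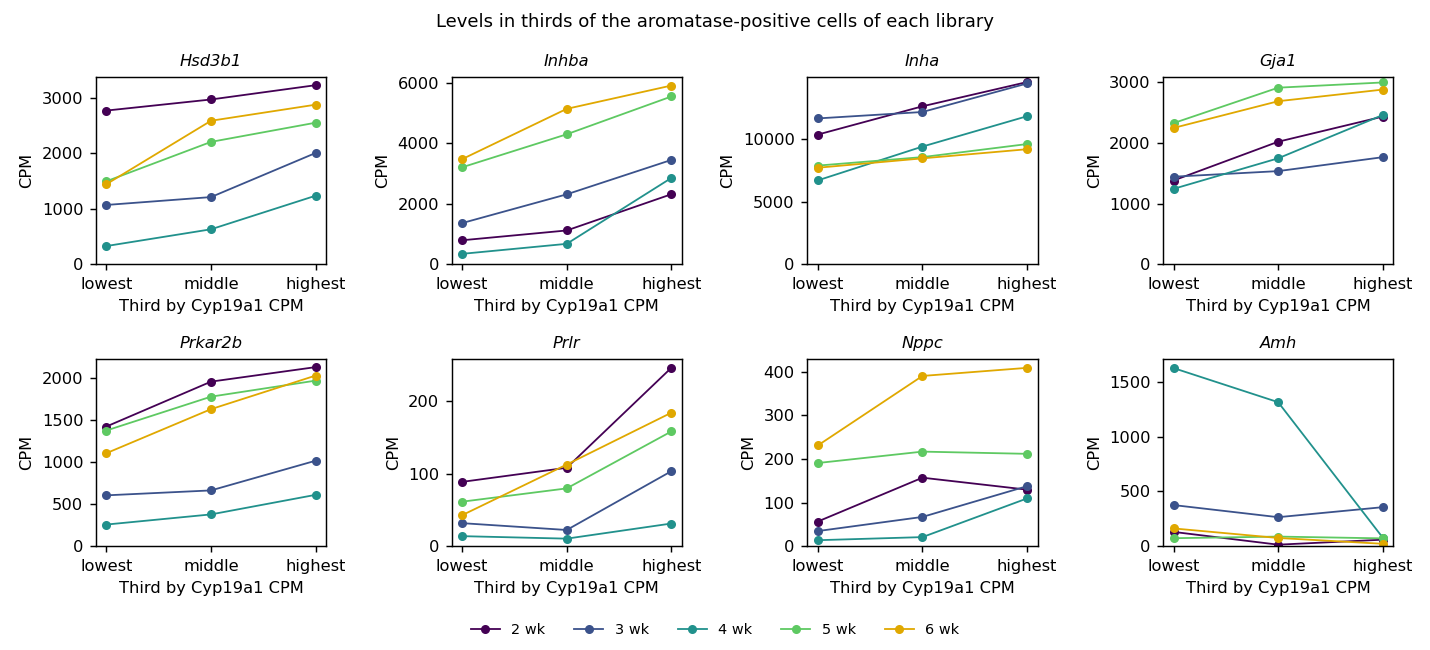
CPM of 8 genes (vertical axes, starting at 0) in the lowest, middle and highest of 3 equal bins of the aromatase-positive cells of each library, ranked by Cyp19a1 CPM; each line is 1 library. Hsd3b1, Inhba, Inha, Gja1 and Prkar2b go up over the bins in all 5 libraries, and Amh ends lower than it starts in all 5.

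The cells of 2 and 3 wk were then set beside those of 5 and 6 wk. A gene counted as early-high where the lower of its 2 early levels was at least 2 times the higher of its 2 late levels, and as late-high in the reverse case. Among 6188 genes with a mean of at least 20 CPM, 7 were early-high (0.113%) and 35 were late-high (0.566%), and the median gene was at -0.04 on the log2 scale of early over late. In aromatase-negative cells the same counts were 20 (0.326%) and 46 (0.751%), in stromal cells 16 (0.264%) and 32 (0.527%), and in immune cells 75 (1.21%) and 74 (1.20%). The groups differ in cells and UMIs, and the counts were not tested against each other. With cells thinned to 8000 UMIs, the aromatase-positive counts were 30 and 74, which held 6 of the 7 and 18 of the 35 genes. Leaving out 1 library gave 13 (without 6 wk) to 82 (without 3 wk) early-high and 52 (without 6 wk) to 265 (without 2 wk) late-high genes.

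The early-high genes were Wnt4, Cbs, Peg3, Scara5, Susd4, Nfib and AC160336.1. Wnt4 (chr4:137277489-137299726, plus strand), a signal that female gonads need to form, was at 519 CPM at 2 wk, 43.1 at 3 wk, 13.2 at 4 wk, 14.3 at 5 wk and 19.2 at 6 wk. The 2 wk level stood 12.0-fold above the 3 wk level, and the measure was met by the 3 wk level, which was 2.24 times that at 6 wk. Cbs, an enzyme of cysteine synthesis, was at 267, 201, 62.8, 70.1 and 71.4 CPM, and both early libraries were well apart from the later ones. Peg3, an imprinted zinc finger gene, was at 165, 58.1, 59.5, 18.0 and 23.1 CPM. Scara5, a receptor for ferritin, was at 139.7, 39.96, 23.1, 17.5 and 11.7 CPM, and Susd4, a complement regulator, at 188, 46.8, 6.61, 21.2 and 16.7 CPM. Of the 7 genes, 6 passed the limit of 20 CPM in aromatase-negative cells, and 5 met the measure there (71.4% of the 7). These 5 made up 25% of the early-high genes there. In aromatase-negative Inhba-negative granulosa cells 2 of the 7 (28.6%) met the measure, beside 0.471% of all genes there. AC160336.1 met it in stromal and immune cells as well.

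Unnamed genes, here Gm42418 and AY036118, were left out of the ranking by separation, though both separated more than most genes in it. The other 10 late-high genes with the largest separation and a mean of at least 50 CPM were Hist1h2ap, Tdrd5, Thbs4, Id2, Lars2, Bex4, Grb14, Mgarp, Sema5a and Igfbp7. Tdrd5, a Tudor-domain protein of germ-line RNA granules, was at 59.9, 62.4, 172, 222 and 237 CPM. Id2, an inhibitor of helix-loop-helix factors and a target of BMP signals, was at 84.1, 81.8, 36.4, 273 and 259 CPM. Grb14, an adaptor that restrains insulin receptor signals, was at 123, 73.7, 394, 453 and 356 CPM. In Tdrd5 and Grb14 the 4 wk cells already stood with the late ones, whereas in Id2 they stood below all the others. Mgarp, a mitochondrial protein of steroid-making tissues, was at 123, 83.0, 36.4, 402 and 351 CPM, and Bex4 at 356, 319, 691, 1059 and 1187 CPM. Of the 35 genes, 28 passed the limit of 20 CPM in aromatase-negative cells, and 17 met the measure there (48.6% of the 35). These 17 made up 37.0% of the late-high genes there. In aromatase-negative Inhba-negative granulosa cells 19 of the 35 (54.3%) met it, beside 1.25% of all genes there.

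Some late-high genes moved with things other than granulosa cells. Of the 35 genes, 5 were also late-high in stromal cells (Lars2, Gm42418, AY036118, Bex4 and Thbs4), beside 0.527% of all genes there, and 4 in immune cells (Lars2, Gm42418, AY036118 and Grb14), beside 1.20%, and the late libraries are those counted with the later software version. Igfbp7 was at 185 CPM at 5 wk, of which 63.3% came from 1 cell. Single cells also gave 94.9% of the Acta2, 91.5% of the Tagln and 51.2% of the Sparc UMIs at 5 wk, and 65.8% of Acta2 and 72.0% of Tagln at 6 wk. Theca markers aside, 13 cells had 5 or more UMIs of markers of other cell types (3 at 5 wk and 10 at 6 wk). Without them, 9 genes were early-high and 28 late-high, 4 were higher and 11 lower than in aromatase-negative cells, and 26 of the 35 late-high genes were among those 28.

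**Figure D5:**
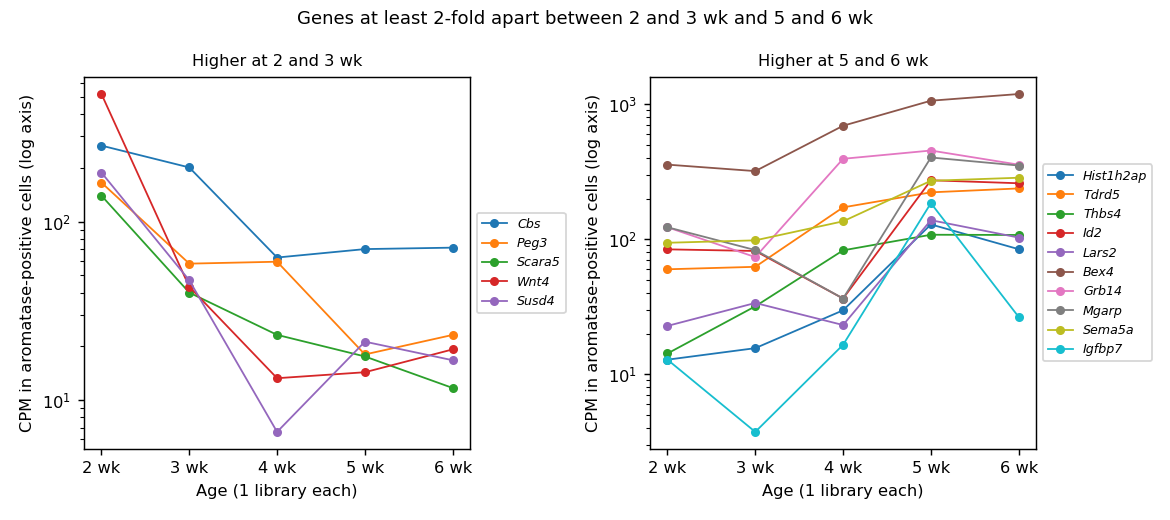
CPM in aromatase-positive cells (log axis) by age in weeks, 1 library each, for genes with a mean of at least 50 CPM. Shown are the 5 early-high genes (left) and the 10 late-high genes with the largest separation, unnamed genes left out (right). Wnt4 is far above the rest at 2 wk only (519 CPM), Cbs is high at 2 and 3 wk, and Igfbp7 is high at 5 wk only (185 CPM, 63.3% of it from 1 cell).

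A list of 14 genes was taken from those the study compared between waves on these same samples, leaving out Inha, which the rule used. The study gave some of them as different and some as alike, so their direction here is not independent evidence. Of 13 measured, 1 was early-high (Wnt4) and 1 late-high (Grb14), beside 0.113% and 0.566% of all genes. Igfbp5, which binds insulin-like growth factors, was at 229, 38.7, 9.92, 29.96 and 27.3 CPM, and Itga6, a laminin receptor, at 244, 29.97, 43.0, 35.0 and 40.2 CPM. Both were high at 2 wk alone. Igf1 was at 37.1, 161, 347, 179 and 159.6 CPM, so it was low at 2 wk and highest at 4 wk.

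The early libraries were not alike. With the summed UMIs of each library thinned to 701617, the total at 2 wk, 3188 genes had a mean of at least 50 CPM. Of these, 300 (9.41%) were at least 2-fold apart between 2 and 3 wk, but 21 (0.659%) between 5 and 6 wk. Between early and late libraries the counts were 136 (4.27%) for 2 and 5 wk, 142 (4.45%) for 2 and 6 wk, 235 (7.37%) for 3 and 5 wk and 212 (6.65%) for 3 and 6 wk. The 2 wk and 3 wk cells thus differed from each other in more genes than either did from the late cells, and the late libraries were close to each other. The thinned pools held equal UMIs but came from 37, 70, 102 and 235 cells at 2, 3, 5 and 6 wk. The part of cell number in these counts was not tested.

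Markers of other cell types were low in the aromatase-positive cells, with exceptions at 5 and 6 wk. The 6 theca markers summed to 248, 164, 119, 593 and 489.7 CPM, against a mean of 3715 CPM in theca cells. At least 5 UMIs of the 6 theca markers were found in 12, 26, 2, 81 and 193 cells, and Mgarp was the most abundant of them. Insl3 and Plin1 had 0 UMIs in all 5 libraries, but the rule had already removed every cell with a Cyp17a1 UMI. Cyp11a1 is also a granulosa gene. The 5 stroma markers summed to 34.2, 4.99, 9.92, 23.0 and 16.0 CPM, led by Col1a1, and 84.0% of the 5 wk UMIs came from 1 cell. The 7 smooth muscle markers summed to 29.9, 13.7, 23.1, 65.5 and 72.8 CPM, led by Tagln, with 93.0% of the 5 wk UMIs from 1 cell. The 5 endothelial markers summed to 5.70, 4.37, 3.31, 95.4 and 5.92 CPM, with 96.6% of the 5 wk UMIs from 2 cells. Immune, surface epithelium, oocyte and erythroid markers summed to at most 6.91 CPM in every library.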

How the data were processed

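Ovaries of C57BL6/J mice were profiled by droplet single-cell RNA-seq in 5 libraries, 1 for each age of 2, 3, 4, 5 and 6 wk. How many mice each library pooled is not given in the sources used here. The authors aligned the reads to mm10 with Cell Ranger (3.1.0 for 2, 3 and 4 wk and 6.0.1 for 5 and 6 wk, per the file headers) at default settings and used Seurat 4.1.0 downstream. The deposited matrices hold counts, that is UMIs per gene and cell, for 31053 genes, and these were used as deposited.

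Cells were chosen by the rule given at the start of the report. Their UMIs were summed in each library and expressed per 1000000 UMIs (CPM). CPM carry exact Poisson intervals, shares exact Clopper-Pearson intervals and ratios exact conditional intervals, all at 95% and for counting error only. The spread between animals is not covered. With 1 library per age no test was run. Where no UMI was counted, 3 UMIs (or 3 cells of the total) were taken as the limit in place of an interval. Genes needed a mean of 20 CPM and a ratio of 2 or more (0.5 or less) to be counted. Cells were thinned to 8000 UMIs with seed 1. Doublets were called per library with Scrublet (scanpy 1.11.5) and kept. Python 3.11.15, numpy 2.4.6, scipy 1.17.1, pandas 2.3.3 and matplotlib 3.10.9 were used, and the counting of genes between ages was tested on simulated data.

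Named genes were the markers, the genes of 29 lists, up to 10 early-high and 10 late-high genes and 10 genes each with the highest lowest and the lowest highest ratio to aromatase-negative cells (mean of at least 50 CPM), and the 10 most abundant genes, leaving out ribosomal, mitochondrial and unnamed genes and the 5 genes of the rule. Single genes named outside this rule, among them the members of counts of 9 or fewer, were chosen after their values were seen. Some genes that the rule names are not reported here. The cell rule and the lists were chosen with earlier results of these data known. Alternatives changed the UMI limits, filters, doublets, depth, scaling, fold and libraries. The removal of cells with UMIs of other cell types, the thinned pools and the motif AGGTCA were added after seeing the data.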

Additional observations from a re-analysis of the deposited data

Results flagged for a closer look

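The ratio of Slc38a5, a glutamine transporter (chrX:8271133-8280179, plus strand), between aromatase-positive and aromatase-negative cells lay above even at both early ages and below it at both late ages. It was 3.65 at 2 wk (1.95 to 7.01), 1.65 at 3 wk (1.46 to 1.86), 0.983 at 4 wk (0.785 to 1.22), 0.816 at 5 wk (0.751 to 0.885) and 0.829 at 6 wk (0.778 to 0.882). The lower early ratio was 1.99 times the higher late one. In aromatase-positive cells Slc38a5 was at 39.9, 220, 284, 317 and 213 CPM, against 10.9, 133, 289, 389 and 257 CPM in aromatase-negative cells, so both groups were lowest at 2 wk. The difference between the ages was not tested, and its cause was not tested.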

How the results depend on the processing

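No paired analysis was possible because each age had 1 library, and the replicate number 1 of every group pairs nothing. The 4 wk over 2 wk share (0.389) was 0.806 with at least 1 Cyp19a1 UMI and 0 with at least 5, when no 4 wk cell was left and no 6 wk over 4 wk share or count over 5 libraries could be given. The 6 wk over 4 wk share (14.4) was 7.15 with at least 1. Early-high and late-high genes (7 and 35) numbered 19 and 54 with at least 5 Cyp19a1 UMIs, 30 and 74 in thinned cells, 28 and 114 at a fold of 1.5, 1 and 12 at a fold of 3, 19 and 120 at a mean of 5 CPM and 121 and 273 with no filter, with 16 late-high at 50 CPM. Of the 7 and 35 genes, 6 and 18 were among those of the thinned cells. Genes higher and lower than in aromatase-negative cells (5 and 9) numbered 29 and 19 with no Inhba requirement, 42 and 31 at 1.5, 0 and 1 at 3, 10 and 22 at 5 CPM, 3 and 1 at 50 CPM and 14 and 141 with no filter. The higher genes were 3 in thinned cells and 3 with ribosomal protein and mt- genes out of the total, and the lower genes were 3 with at least 1 Cyp19a1 UMI. Of the 5 and 9 genes, 1 and 3 were among those of the thinned cells and 2 and 2 among those with at least 1 Cyp19a1 UMI. Leaving out 1 library gave 13 (without 6 wk) to 82 (without 3 wk) early-high genes, 52 (without 6 wk) to 265 (without 2 wk) late-high genes, 5 to 36 (without 4 wk) higher genes and 10 to 17 (without 2 wk) lower genes. The causes of these shifts were not tested, beyond fewer libraries, cells or genes entering a count. The other 54 alternative values of these 6 results were within 1.5 times the main count or within the interval of the share. The 302392 UMIs at 4 wk limit that library most, since the floor of 3 UMIs corresponds to 9.92 CPM there.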

Other observations

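Of 16 measured genes of cholesterol synthesis and uptake, 3, 0, 2, 2 and 2 were at least 2-fold higher in order of age and none was at most 0.5, beside 3.38%, 1.24%, 1.59%, 1.98% and 1.36% of all genes that were higher, with median ratios of 1.31, 1.14, 1.54, 1.49 and 1.77. Scarb1, the receptor for high-density lipoprotein, was at ratios of 1.102, 1.51, 1.70, 1.98 and 1.78. Genes of glycolysis and hypoxia summed to 5016, 7399, 7159.6, 5164 and 5577 CPM against 3602, 5555, 5849, 4939 and 4139 CPM, and with the rule applied to thinned cells the ratio of the sums was 1.30, 1.21, 1.14, 0.994 and 1.14, so at 5 wk it was not above even (0.951 to 1.04).

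Immediate-early and heat shock genes, which can respond to tissue dissociation, summed to 10783.7, 7782, 10784.0, 9435 and 8751 CPM against 7538, 10761, 10090.7, 11961 and 8434 CPM. The aromatase-positive cells were higher at 2, 4 and 6 wk and lower at 3 and 5 wk. The part of this list in the other differences was not tested. The most abundant named transcripts were Malat1, Tpt1, Eef1a1, Hsp90ab1, Actb, Ptma, Hspa8, Fau, Akr1cl and Rack1. Akr1cl, an aldo-keto reductase, was at 2751, 2363, 3443, 2676 and 2523 CPM, with ratios to aromatase-negative cells of 0.827 to 1.09.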
